A study of Homo sapiens with 5 samples.

Results

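The peaks described here lie at the genes of SRSF9, the protein that was immunoprecipitated, ADARB1, which encodes the editing enzyme ADAR2, and ADAR, which encodes the related enzyme ADAR1. They are the rows of the deposited peak table that shared at least 1 nt with a hg19 interval around each gene, of 9 kb for SRSF9, 153 kb for ADARB1 and 47 kb for ADAR. This gave 38 of 80514 peaks, with 3 at SRSF9, 17 at ADARB1 and 18 at ADAR. The table has no gene names and no strand, so a peak is placed in a gene by position only. All positions are on hg19 and counted from 1.

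RNA bound to SRSF9 was profiled by eCLIP. In this method RNA is fragmented, pulled down together with the protein, run onto a membrane, purified from it and sequenced. The cells were HEK 293T, a human embryonic kidney line. In 2 libraries the cells overexpressed SRSF9 alone, and in 2 they overexpressed SRSF9 together with ADAR2, so SRSF9 was overexpressed in every library. A further input library, from cells with both proteins, has no values of its own in the table. The labels name an antibody to SRSF9, whereas their extraction protocol names beads coupled for MYC. They do not describe the overexpression constructs, nor whether the pair of libraries for each condition stems from separate cultures. A p-value here therefore reflects only how far these libraries differ, and that spread may be technical.

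SRSF9, also called SRp30c, is a small SR protein, a class of splicing factors that bind RNA through RNA recognition motifs and carry a serine- and arginine-rich tail. Many SR proteins bind purine-rich RNA and regulate splicing of SR protein transcripts, including their own. ADAR1 and ADAR2 convert adenosine to inosine in double-stranded RNA. ADAR2 edits transcripts of neuronal receptors and channels at defined sites and also edits its own pre-mRNA, while ADAR1 edits many repeat-derived duplexes. The study addressed how SRSF9 represses editing at targets of ADAR2.

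The reference sequences of the 4 coding segments (the coding part of an exon) whose length and spacing were met by a peak at both ends are shown first, because the results at SRSF9 and ADARB1 turn on them. They were taken from GENCODE release 29 transcripts (GRCh38) and are not reads of this experiment. Each runs 5′ to 3′ on the coding strand, and capitals mark GGAG, a purine-rich motif that was searched on that strand only.
SRSF9, segment of 161 nt: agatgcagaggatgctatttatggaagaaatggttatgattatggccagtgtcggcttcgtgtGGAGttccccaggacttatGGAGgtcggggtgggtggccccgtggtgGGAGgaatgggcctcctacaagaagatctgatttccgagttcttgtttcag
SRSF9, segment of 173 nt: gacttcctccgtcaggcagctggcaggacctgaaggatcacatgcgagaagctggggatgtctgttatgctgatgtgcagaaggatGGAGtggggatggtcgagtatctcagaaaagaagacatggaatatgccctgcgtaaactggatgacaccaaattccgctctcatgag
SRSF9, segment of 141 nt: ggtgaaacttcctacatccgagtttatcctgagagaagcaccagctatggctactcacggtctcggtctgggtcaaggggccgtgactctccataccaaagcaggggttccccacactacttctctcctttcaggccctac
ADARB1, segment of 182 nt: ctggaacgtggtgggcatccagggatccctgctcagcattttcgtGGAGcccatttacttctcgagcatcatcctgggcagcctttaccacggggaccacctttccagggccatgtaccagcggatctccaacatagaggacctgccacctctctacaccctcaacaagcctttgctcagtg

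The motif GGAG occurred 3 times in the SRSF9 segment of 161 nt, once in that of 173 nt and once in the ADARB1 segment of 182 nt, and was not found in the SRSF9 segment of 141 nt. Among all coding segments of the same length in GENCODE, 70.6% of 844 segments of 161 nt, 76.6% of 937 of 173 nt, 72.4% of 573 of 182 nt and 63.0% of 1388 of 141 nt held it. As many as 3 copies were found in 16.9% of the segments of 161 nt. Purines made up 55.3%, 58.4% and 44.0% of the SRSF9 segments of 161, 173 and 141 nt and 43.4% of the ADARB1 segment, where the medians at the same lengths were 52.2%, 51.4%, 52.5% and 51.6%. A match of these letters describes the reference sequence and marks no binding site.

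At the locus of SRSF9 itself the table held 3 peaks, all classed as found only with ADAR2. None was classed as found without ADAR2 or as shared, although SRSF9 was overexpressed in both conditions. The nearest peak present without ADAR2 lay 88918 nt away from the closest of the 3. In the whole table, 10.3% of peaks found only with ADAR2 had such a peak at 1000 nt or less. Of all peaks in the table, 89.4% were classed as found only with ADAR2, so 3 of 3 in that class is near the background. The class tells where the authors' table lists a peak, and a peak not listed is not a measurement of no binding.

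The 3 SRSF9 peaks were wide and lay on chromosome 12. The first, from 120899825 to 120899965, was 141 nt wide and had log2 ratios of 1.82 in the first and 0.77 in the second library with ADAR2. The next, from 120901753 to 120901925, was 173 nt wide, with 1.29 and 0.21. The last, from 120903430 to 120903590, was 161 nt wide, with 1.31 and 0.34. The ratio is the authors' log2 value per peak and library, and no source used here gives its denominator. All 3 peaks were higher in the first library than in the second, by 0.97 to 1.08, and the ranges of the libraries did not overlap. Over all 75751 peaks present with ADAR2 the first library was higher in 61.1%, with a median difference of 0.05 (quartiles -0.31 and 0.54). In the first library the SRSF9 values stood above 53.5% to 77.1% of these peaks, and in the second above 14.9% to 37.6%. None of the 3 exceeded a log2 ratio of 1 in both libraries, which 43.0% of all peaks present with ADAR2 did.

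Each SRSF9 peak had exactly the length of a coding segment of SRSF9, and the peaks lay exactly as far apart as those segments. The GENCODE annotation is on GRCh38, so lengths and distances within a gene were compared and no coordinate was moved between builds. SRSF9 has 4 coding segments there, on the minus strand (ENSG00000111786.8). From start to start along the chromosome the peaks were 1928 and 1677 nt apart, and so were the segments of 141, 173 and 161 nt. All 6 peak edges met a segment edge at this one spacing. Widths equal to one of the 4 segment lengths were found in 30 of the 80514 peaks, 0.0373%. The segment of 141 nt is the last of the coding sequence and ends at the stop codon, which the annotation leaves out of it. By its spacing, the peak of that length stopped at the last codon before the stop. Whether the RNA came from the endogenous gene or from the overexpression construct cannot be told apart in this table. The segment of 188 nt, which holds the start of the coding sequence, had no peak at its spacing. No peak in the interval lay outside the coding spacing.

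**Figure D1:**
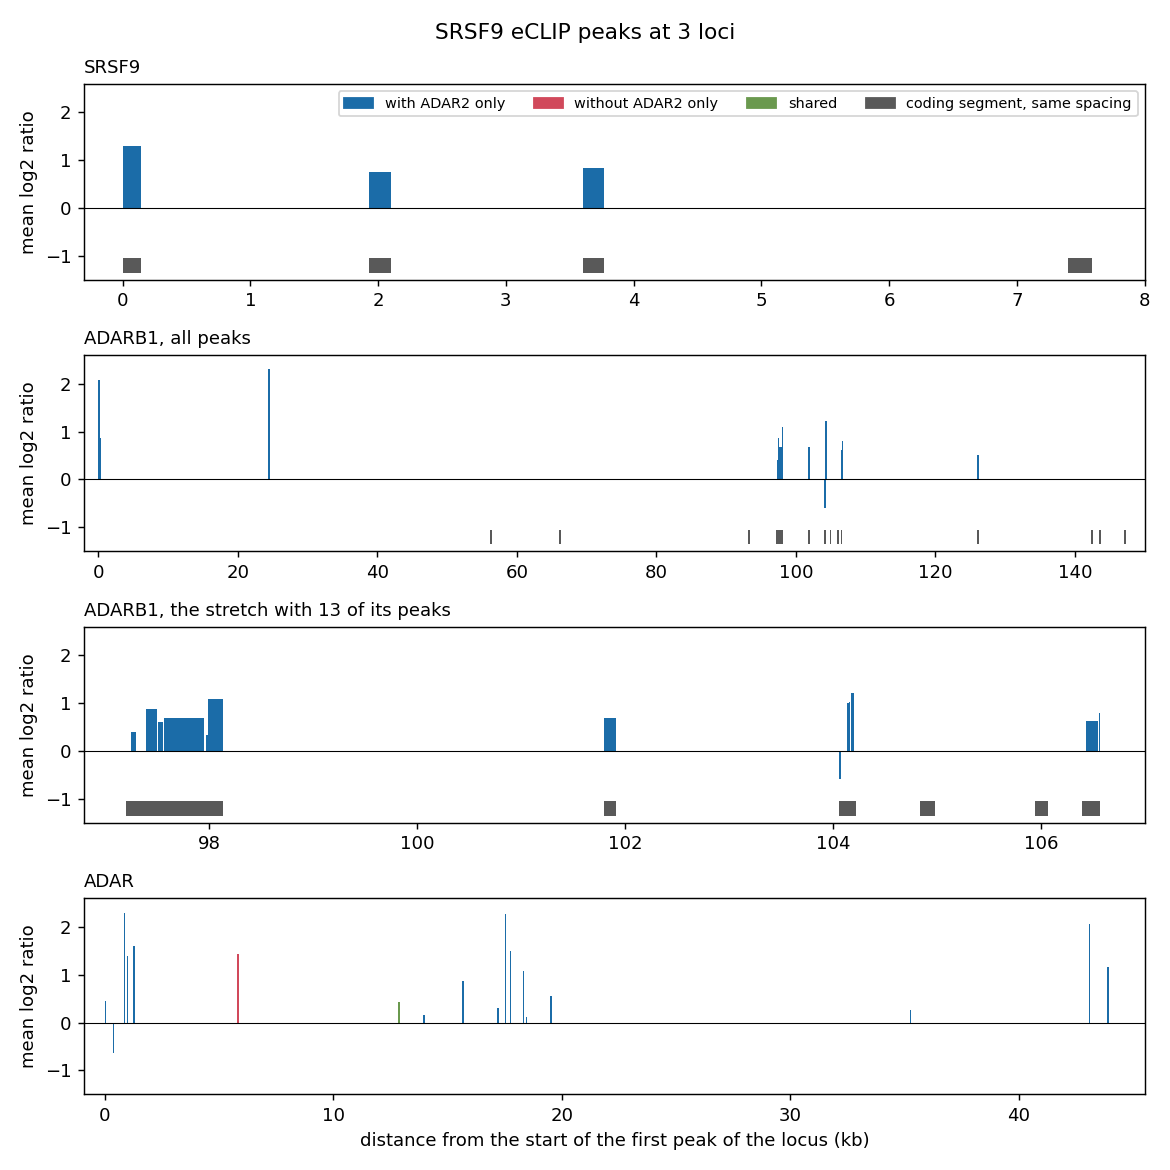
Peaks at the 3 loci by distance in kb from the start of the first peak of the locus (horizontal axis) and mean log2 ratio over the libraries of the condition (vertical axis; with ADAR2 for shared peaks), coloured by class, with very narrow features drawn at a minimum width. Grey boxes are coding segments laid at the spacing that meets the most peak edges (6 of 6 at SRSF9, 5 of 34 at ADARB1, none drawn at ADAR); the third panel enlarges the stretch with 13 of the 17 ADARB1 peaks.

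At ADARB1 the table held 17 peaks on chromosome 21, and all 17 were classed as found only with ADAR2, beside 89.4% of all peaks. The nearest peak present without ADAR2 lay 60809 nt from the closest of them. ADARB1 was overexpressed only in the condition in which its peaks were listed. The amount of ADARB1 RNA and the binding of SRSF9 to it cannot be told apart here. Over the 17 peaks the log2 ratio ran from -0.10 to 2.16 with a median of 0.98 in the first library, and from -1.09 to 2.45 with a median of 0.48 in the second. The medians over all peaks present with ADAR2 were 1.16 and 1.06.

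Of the ADARB1 peaks, 14 lay inside coding segments by their spacing and 3 lay elsewhere. One spacing met 5 of the 34 peak edges, more than any other. It was fixed by a peak from 46624470 to 46624651, 182 nt wide, which had the length of a coding segment of ADARB1 (ENSG00000197381.15, plus strand) and met it at both ends. Its start lay 27891 nt after the end, at 46596579, of the block of peaks in the longest coding segment, and the corresponding segments lay the same distance apart. The 14 peaks touched 5 of the 16 coding segments listed for the gene, some of which belong to alternative transcripts. Their widths alone would not have placed them, since 2 of 17 ADARB1 widths equalled a segment length while 6.67% of all peaks in the table did.

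The longest coding segment of ADARB1, of 935 nt, held 6 of these peaks and was covered over 78.2% of its length. They ran from 46595689 to 46596579, with gaps of 13 to 93 nt, and the last ended at the end of the segment. The peak from 46596013 to 46596395, 383 nt wide, had 1.13 in the first and 0.25 in the second library. It was the widest of the 71949 peaks found only with ADAR2, and 1 of the 80357 distinct regions in the table was wider. The last peak of the block, 143 nt wide, had 1.43 and 0.75, the highest ratio of the block in both libraries. At 46595834 to 46595941, 108 nt wide, the ratios were 1.27 and 0.48. A peak of 52 nt at the start of the block had 0.77 and 0.03, one of 43 nt had 0.85 and 0.36, and one of 2 nt had 0.59 and 0.10. In all 6 peaks of this segment the first library was higher, beside 61.1% of all peaks present with ADAR2. With gaps of at most 93 nt, these neighbours are not independent of one another.

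The next coding segment, of 115 nt, was covered but for its last base by a peak from 46600245 to 46600358, with 1.26 and 0.11, the widest library difference at this locus at 1.16. In the following segment, of 169 nt, 4 narrow peaks covered 44.4%. One of these, from 46602501 to 46602518, was the only ADARB1 peak below 0, with -0.10 and -1.09, beside 7.45% of all peaks present with ADAR2 that were below 0 in both libraries. No peak present with ADAR2 was below 0 in only 1 library, so an equal sign in both is no result of this locus. The neighbours of that peak, of 19, 9 and 29 nt, had 0.94, 0.98 and 1.37 in the first library and 1.06 each in the second. The value 1.06 was the most common in that library, at 6245 of 75751 peaks, as ratios of small whole numbers give, so 3 equal values do not show close agreement. The coding segments of 149 and 120 nt that follow had no peak at their spacing. A second segment of 169 nt was covered over 72.8% by peaks of 117 nt (0.81 and 0.44) and 6 nt (0.81 and 0.79). The segment of 182 nt had 1.01 and 0.01 over its whole length. The later segments, of 179 and 177 nt among others, had no peak at their spacing.

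The 3 ADARB1 peaks elsewhere were 12 to 34 nt wide, beside 2 to 383 nt at coding spacing and a median of 34 nt over all peaks. They showed the opposite order of the libraries to 12 of the 14 at coding spacing. They lay from 46498442 to 46498470 with 1.77 and 2.38, from 46498669 to 46498680 with 0.81 and 0.94, and from 46522823 to 46522856 with 2.16 and 2.45. Of the 17 peaks at the locus, these included the only 2 above 1.5 in either library. The first library was lower in all 3, with differences of -0.61, -0.13 and -0.30. In the 14 peaks at coding spacing it was higher in 12, with a median difference of 0.59 and a range from -0.12 to 1.16. The differences of these sets only just failed to overlap, with -0.116 as the lowest at coding spacing and -0.129 as the highest elsewhere. Among all peaks present with ADAR2, 61.1% were higher in the first library. The sets were compared after their values had been seen, and the difference is given without a test.

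**Figure D2:**
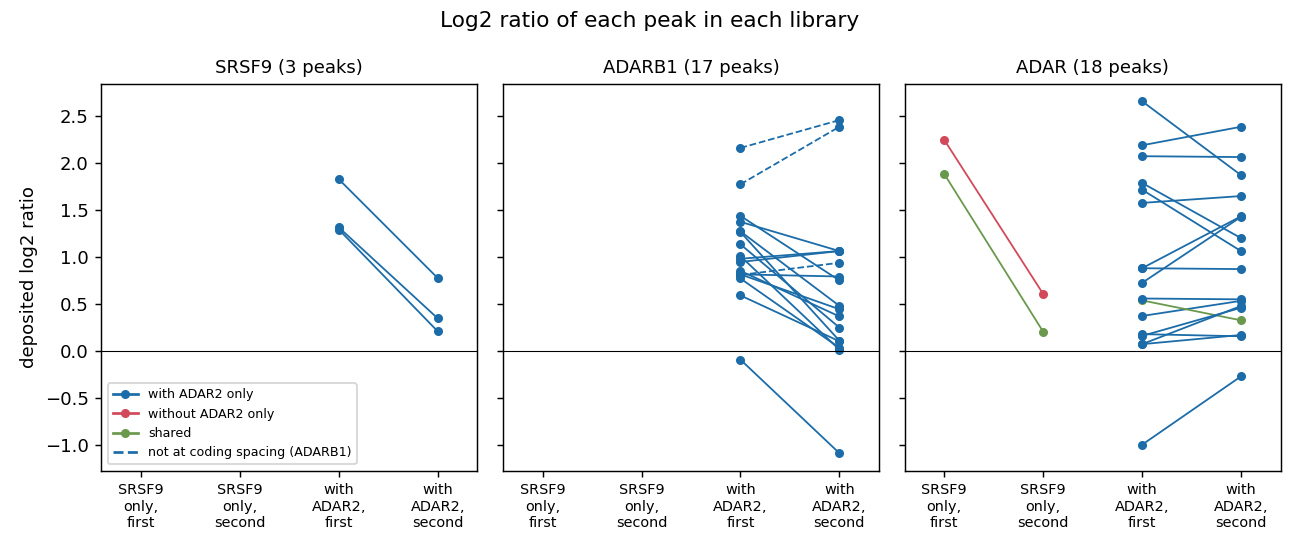
Deposited log2 ratio (vertical axis) of each peak in each library (horizontal axis), with a line joining the libraries of a condition and colours for the class; dashed lines are the 3 ADARB1 peaks that were not at coding spacing. All 3 SRSF9 peaks and 12 of the 14 solid ADARB1 lines fall from the first to the second library with ADAR2, while the ADAR lines go both ways.

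Several peaks at SRSF9 and ADARB1 were very wide and carried averaged values. Peaks of 141 nt or more made up 0.517% of all peaks, but 3 of 3 at SRSF9, 3 of 17 at ADARB1 and 0 of 18 at ADAR, where the widest was 94 nt. Most deposited values have 3 decimals, and values with more decimals have the form of a mean over several entries. Such values stood in 3 of 3 SRSF9 peaks, 6 of 17 ADARB1 peaks and 0 of 18 ADAR peaks, against 3.18% of all peaks found only with ADAR2 and 61.1% of the 270 peaks of that class that were at least 141 nt wide. At these shares of wide and averaged peaks, 0 of 18 at ADAR does not set that locus apart from the table. In the SRSF9 peak of 141 nt the smallest number of 3-decimal entries that gives the value was 11 in the first library and 7 in the second. For the peak of 173 nt these were 11 and 8, and for the ADARB1 peak of 383 nt they were 8 and 7. For the ADARB1 peak of 108 nt the number was 3 in both. These are lower limits, since any multiple gives the same value, so they do not show how many entries were averaged. Among all table peaks present with ADAR2 and at least 141 nt wide, 72.9% of 409 were higher in the first library, with a median difference of 0.33. The 6 ADARB1 peaks of 100 nt or more were higher in the first library by 0.37 to 1.16. Large differences were not limited to wide or averaged peaks. ADARB1 peaks of 18 and 52 nt, without averaged values, were higher in the first library by 0.995 and 0.737. Other narrow ADARB1 peaks differed little or in the opposite order. The part of width and averaging in the library difference was not tested.

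**Figure D3:**
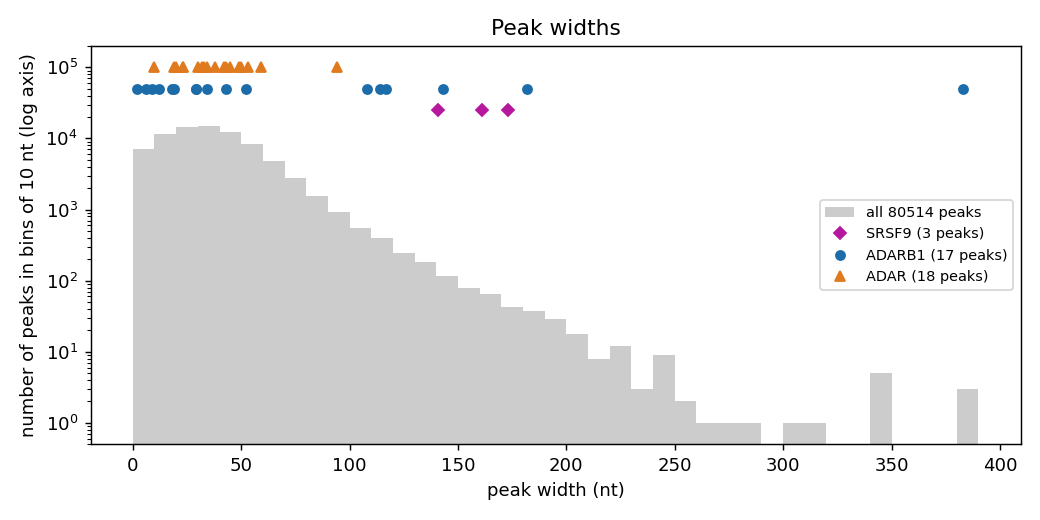
Number of peaks in the table by width in nt (grey bars, bins of 10 nt, log vertical axis), with the widths of the peaks at each locus marked above; the height of the marks carries no value. All SRSF9 peaks and the widest ADARB1 peaks lie in the sparse right tail, while the ADAR peaks, 10 to 94 nt wide, lie within the bulk.

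**Figure D4:**
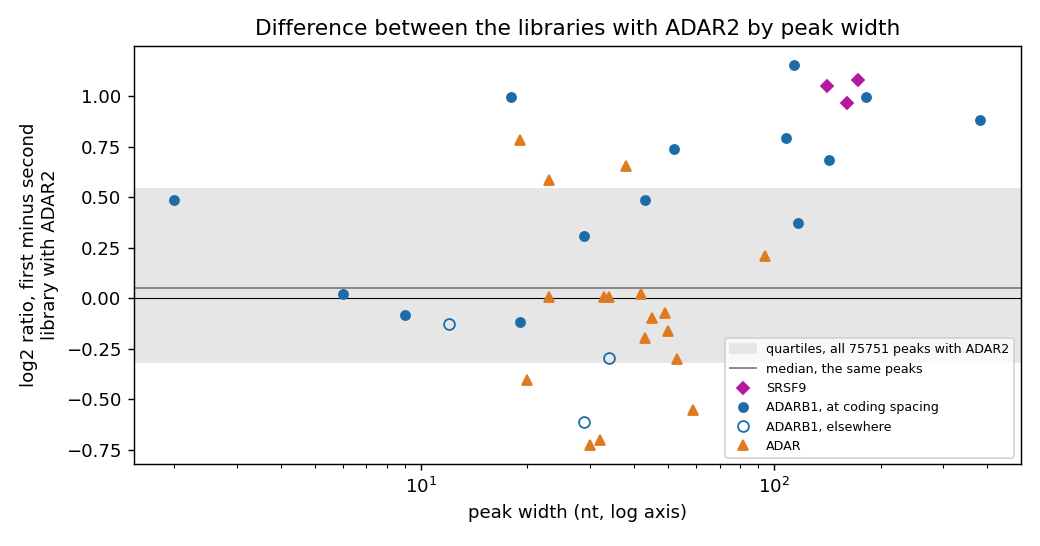
Log2 ratio in the first minus the second library with ADAR2 (vertical axis) against peak width (nt, log horizontal axis) for the 37 peaks present with ADAR2, with the quartiles and median of all 75751 such peaks as a grey band and line. The SRSF9 peaks sit at 0.97 to 1.08, above the band, and the 3 open ADARB1 circles sit below 0.

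ADAR was the enzyme gene that was not overexpressed. It was the only one of the 3 loci with a peak listed without ADAR2, but the class shares at each locus were near those of all peaks. Of its 18 peaks on chromosome 1, 16 were found only with ADAR2, which is 88.9% (95% Wilson interval 67.2 to 96.9, counting error over peaks only) beside 89.4% of all peaks. A further peak was found only without ADAR2, beside 5.92% of all peaks, and another was shared, beside 4.72%. Over the 17 peaks present with ADAR2 the ratio ran from -1.001 to 2.65 with a median of 0.72 in the first library and from -0.27 to 2.38 with a median of 0.87 in the second. The first library was higher in 8 of 17, beside 61.1% of all peaks present with ADAR2, with a median difference of -0.07. A log2 ratio above 1 in both libraries was reached by 6 of 17 ADAR peaks and 3 of 17 ADARB1 peaks, beside 43.0% of all peaks present with ADAR2.

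The ADAR peaks with the highest mean ratio lay in separate stretches of the gene. From 154557300 to 154557342 the ratios were 2.19 and 2.38, and from 154573974 to 154573992 they were 2.65 and 1.87. Near the far end of the interval, the peak from 154599516 to 154599549 had 2.07 and 2.06. It was followed by those from 154557716 to 154557764, with 1.57 and 1.65, and from 154574181 to 154574203, with 1.78 and 1.20. The lowest was from 154556818 to 154556847, with -1.001 and -0.27, only 452 nt from the highest. The next lowest, from 154574883 to 154574927 and from 154570392 to 154570433, had 0.07 and 0.17, and 0.18 and 0.15. High and low peaks therefore stood side by side. The widest ADAR peak found only with ADAR2 was 59 nt, from 154600339 to 154600397, with 0.88 and 1.43.

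The ADAR peaks could not be placed on coding segments by their edges. The first 5 ADAR peaks lay within 1.3 kb. No spacing met more than 2 of the 36 ADAR peak edges, and 6 spacings reached that number, so the ADAR peaks were not placed in segments. The shared peak was 94 nt wide, a length that a coding segment of ADAR (ENSG00000160710.16) also has. Of all peaks, 1.86% had the length of one of the 17 ADAR segments, and the other 17 ADAR peaks did not.

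The peak found only without ADAR2 lay from 154562257 to 154562266, was 10 nt wide, and had ratios of 2.24 and 0.60 in the libraries with SRSF9 alone. The value 2.243 was the most common in that first library, at 911 of 8565 peaks. The nearest peak with ADAR2 was 4492 nt away, whereas 63.2% of all peaks of this class had one at 1000 nt or less. Of the 16 ADAR peaks found only with ADAR2, 0 had such a neighbour without ADAR2, beside 10.3% in the whole table. The closest was 1002 nt away.

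The shared ADAR peak, from 154569296 to 154569389, is the only one at these loci with values in all 4 libraries. With SRSF9 alone its ratios were 1.88 and 0.20, and with ADAR2 added they were 0.54 and 0.32. The first SRSF9-only library was far above the other 3, and the second was below all of them, so the conditions overlapped. The mean with SRSF9 alone was 1.04 ± 1.19 (SD, n = 2), and the mean with both proteins was 0.43 ± 0.15 (SD, n = 2). The difference, with minus without, was -0.61 ± 0.59 (SE), with a limma adjusted p of 0.494 over all 3645 shared regions. This fit used a variance common to all regions, so its SE does not measure the spread of this region itself. Of the 3645 regions, 18.5% were called higher and 2.41% lower with ADAR2. Without the first SRSF9-only library the difference was 0.23 (limma adjusted p = 0.698), so its sign rests on that library. With each library centred on its median the difference was -1.20 (limma adjusted p = 0.0472). Centring shifted the median difference of all regions from 0.62 to 0.03. In the centred fit 459 of the 3645 regions were called higher and 396 lower with ADAR2, so such a call was not rare. No direction is therefore given for this region.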

How the data were processed

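The authors deposited 1 table of peaks with 4 log2 values and a class per row. The submitters' processing notes name hg19. No source used here gives the aligner, peak caller, thresholds or read depth, so single log2 values carry no interval. With ADAR2, 5645 of 75751 peaks were below 0 in the first library, 5645 in the second and 5645 in both. Peaks below 0 in only 1 of these libraries are thus absent from the table. The library differences with ADAR2 describe only the peaks that are listed. The scale was read as log2 because 60.8% to 72.9% of the values of 3 libraries equalled, up to a constant, the log2 of a ratio of small whole numbers, against at most 20.2% for natural or decimal logarithms. In the second SRSF9-only library this was 16.9% against 11.0%, and it was read on the same scale. Columns were assigned to conditions by the class in which they hold only the placeholder 0. Within a condition libraries are numbered in file order.

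Coding segments came from the GENCODE release 29 basic set (GRCh38). For each locus, the single shift that made the most peak edges coincide with segment edges was sought, and only widths and distances are reported. Spacing, averaging and the order of libraries were examined after the values were seen, and the members and lists were chosen with earlier results of these data known. Peaks were named by rule: every SRSF9 peak and every shared or without-ADAR2 peak, and elsewhere the 5 highest, 3 lowest and widest, with the ADARB1 peaks at coding spacing and the 3 elsewhere added. No other gene was placed, because the annotation used here is not on hg19. Shared regions, with identical coordinates averaged, were compared with limma 3.58.1 in R 4.3.3 with Benjamini-Hochberg adjustment at 0.05. The fit was also run on simulated regions with equal spread and large changes, which does not measure its accuracy on these data. Alternatives were other peak thresholds, merging, centring and leaving out libraries.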

Additional observations from a re-analysis of the deposited data

How the results depend on the processing

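Counts by class were as deposited when peaks had to lie wholly inside the interval or identical coordinates were counted once. When both libraries had to exceed a log2 ratio of 1, 0 of the 3 SRSF9 peaks, 3 of the 17 ADARB1 peaks and 6 of the 16 ADAR peaks found only with ADAR2 remained, and 0 of the ADAR peak found without ADAR2 and 0 of the shared one. Settings chosen after seeing the data required only 1 library to exceed 1. With the first library, 3 SRSF9, 8 ADARB1 and 6 ADAR peaks found only with ADAR2 remained. The same setting kept 1 of 1 ADAR peak without ADAR2 and 1 of 1 shared. With the second library, 0 SRSF9, 5 ADARB1 and 8 ADAR peaks found only with ADAR2 remained. That setting kept 0 of the ADAR peak without ADAR2 and 0 of the shared one. Of all peaks present with ADAR2, 59.2% exceeded 1 in the first library and 53.5% in the second. Of all peaks present with SRSF9 alone, 54.2% exceeded 1 in the first library and 9.56% in the second. Merging ADARB1 peaks within 100 nt gave 8. Centring each library on its median over all peaks moved the medians in the first and second library with ADAR2 to 0.15 and -0.72 at SRSF9, -0.18 and -0.58 at ADARB1 and -0.44 and -0.19 at ADAR. Over shared regions alone the ADAR values were 0.54 and 0.32.

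For the shared ADAR region the difference was 0.23 without the first SRSF9-only library, which reversed it, and ranged from -1.45 to 0.23 over the fits that leave out 1 library. It was -1.20 and passed after centring, where 459 of 3645 regions were called higher and 396 lower. The cause was not tested. Those fits without an SRSF9-only library leave 1 library in that arm, which is assumed to vary like the other arm. No paired analysis was possible because the columns carry no replicate numbers. No pseudocount was tried because the values are already logarithms. With unknown depth, the precision of a single ratio is unknown.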
